A study of Mus musculus with 4 samples.

Results

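Transcripts of 78 nuclear-encoded subunits of the mitochondrial respiratory chain and ATP synthase were followed in mouse embryoid bodies kept in normoxia or moved to hypoxia. Members were chosen by gene symbol alone: the Nduf a, b, c, s and v series of complex I, Sdha to Sdhd of complex II, the Uqcr genes of complex III, the Cox5, Cox6, Cox7 and Cox8 genes of complex IV and the Atp5 genes of complex V. Ndufa4, Ndufa4l2 and the Ndufaf assembly factors were left out. Of 32285 genes in the count tables, 81 symbols matched, and 78 of them had at least 100 unique molecular identifiers (UMIs, each a counted RNA molecule) over the 4 libraries. They were 36 subunits of complex I, 4 of complex II, 8 of complex III, 13 of complex IV and 17 of complex V. The symbols left out by that floor were Cox7b2 with 24 UMIs, Cox8b with 9 and Cox8c with 2, and the least counted member kept was Cox6a2 with 427. All 78 lie on nuclear chromosomes of the mm10 assembly, 3 of them (Ndufa1, Ndufb11 and Cox7b) on the X.

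Embryoid bodies are spheres of differentiating cells, here grown from R1, a line of mouse embryonic stem cells. Their dissociated cells were counted in 4 droplet libraries, 1 per condition. At day 8 a normoxic library stands beside one from bodies grown for 7.33 days in normoxia and then 16 h in hypoxia, and at day 10 a normoxic library stands beside one grown for 8 days in normoxia and then 48 h in hypoxia. All groups share the same cell line, and the sources used here do not state the oxygen level. With 1 library per group there is no replicate check, no test was made, and condition and library cannot be told apart. The labels call the cells mouse embryonic stem cells, but 6 markers of pluripotency summed to 17.7, 5.77, 5.82 and 4.14 CPM (UMIs scaled to a library total of 1000000) in the order day 8 normoxia, day 8 hypoxia, day 10 normoxia, day 10 hypoxia, while 9 fibroblast markers summed to 6876, 6840, 8910 and 3739 CPM.

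The respiratory chain moves electrons from NADH (complex I) and succinate (complex II) through ubiquinone to complex III, on through cytochrome c to complex IV, and there to oxygen. Complexes I, III and IV pump protons across the inner mitochondrial membrane, and complex V, ATP synthase, uses the returning protons to make ATP. Most subunits are nuclear genes, while a small set of core subunits of complexes I, III, IV and V is encoded in the mitochondrial genome, so assembly draws on both. The transcription factor HIF, active when oxygen is scarce, is known to raise glycolytic genes and the complex IV isoform gene Cox4i2.

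The kept cells (3163, 3344, 2670 and 4615 in that order) held 62221875 to 84709052 UMIs per library, with median depths of 23034, 18838.5, 20306 and 12800 UMIs per cell. Ribosomal protein genes took 19.4%, 20.8%, 21.8% and 30.8% of UMIs and mitochondrially encoded genes 3.82%, 2.01%, 4.05% and 1.11%. Because shares of a total compete, a second scaling was set beside the counts and medians of members. It used TMM factors, which add 0.23 to each log2 ratio of hypoxia over normoxia at day 8 and 0.50 at day 10 and move the median over 6576 genes of at least 20 CPM from -0.07 to 0.15 and from -0.33 to 0.16. All 10 listed HIF target genes were at least 1.5-fold higher in both hypoxic libraries. Every value below is on the scale of total UMIs unless TMM is named. TMM puts 18 members that were below 0 at day 8 above 0, and 21 at day 10, so a day 8 ratio between -0.23 and 0 or a day 10 ratio between -0.50 and 0 has no direction that holds under both. Intervals are at 95% and cover counting error only.

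The members together held 2.27% of all UMIs in the day 8 normoxic library and 1.93% in its hypoxic partner, and 2.06% and 1.64% at day 10. At day 8 the median log2 ratio of CPM + 1, hypoxia over normoxia, was -0.28 over the 78 members, and 64 of them were below 0. Of the 6576 genes of at least 20 CPM, 3844 were below 0. By the fold used for calls, 1.5, 7 members (8.97%) were lower and 0 higher, where 6.36% of genes of at least 20 CPM (11.8% of genes of at least 100 UMIs) were lower and 4.67% (4.15%) higher. At day 10 the median over members was -0.55 and 65 members were below 0, beside 4281 of the 6576 genes. There 36 members, 46.2%, were at least 1.5-fold lower against 37.7% (40.6%) of all genes, and 1 was higher, against 12.2% (9.18%). On this scale the shares lower were somewhat above those of genes of at least 20 CPM. At day 8 the share was below the 11.8% of genes of at least 100 UMIs. With each cell given the same weight the shares were further above those of genes of at least 20 CPM. They were 13 members (16.7%) against 7.19% at day 8 and 43 (55.1%) against 38.2% at day 10. Under TMM the medians were -0.053 and -0.053. There 1 member (1.28%) was lower and 1 higher at day 8, against 2.19% of genes lower. At day 10, 13 (16.7%) were lower and 9 higher, against 19.5% lower. Under TMM the member shares lower were thus below those of genes at both ages. Centred on the median gene, 4 (5.13%) were lower and 1 higher at day 8, against 4.55% of genes lower. At day 10, 19 (24.4%) were lower and 5 higher, against 24.3%. Counts summed over a library cannot tell fewer cells of a type from less RNA per cell.

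The members also differed from each other. Their log2 ratios spanned -1.02 (Atp5k) to 0.54 (Ndufv3) at day 8 and -1.46 (Ndufb7) to 0.73 (Cox7a2l) at day 10. The distance between these ends does not depend on how a library is scaled. The far larger set of 6576 genes of at least 20 CPM spanned more, -2.46 to 2.94 at day 8 and -5.65 to 4.40 at day 10. The 2 comparisons share no library, and across the 78 members their ratios correlated with Pearson's r 0.67 and Spearman's rho 0.66, against r 0.44 across the 6576 genes. These are correlations across genes, which are not independent replicates. All 7 members lower at day 8 were also lower at day 10, 35 of the 36 lower at day 10 were below 0 at day 8, and 9 members were above 0 both times. The ratio was lower at day 10 than at day 8 for 59 of 78 members on this scale. That count was not made over all genes, whose median also went from -0.07 to -0.33 over the 6576 genes. It depends on the scaling: under TMM the member median was -0.05 at both ages. Time in hypoxia, age and library change together here and cannot be told apart. Between the normoxic libraries, day 10 over day 8, 0 members were 1.5-fold lower or higher (6.49% and 6.54% of genes of at least 20 CPM were, and 10.9% and 8.92% of genes of at least 100 UMIs) and the median was -0.17.

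**Figure D1:**
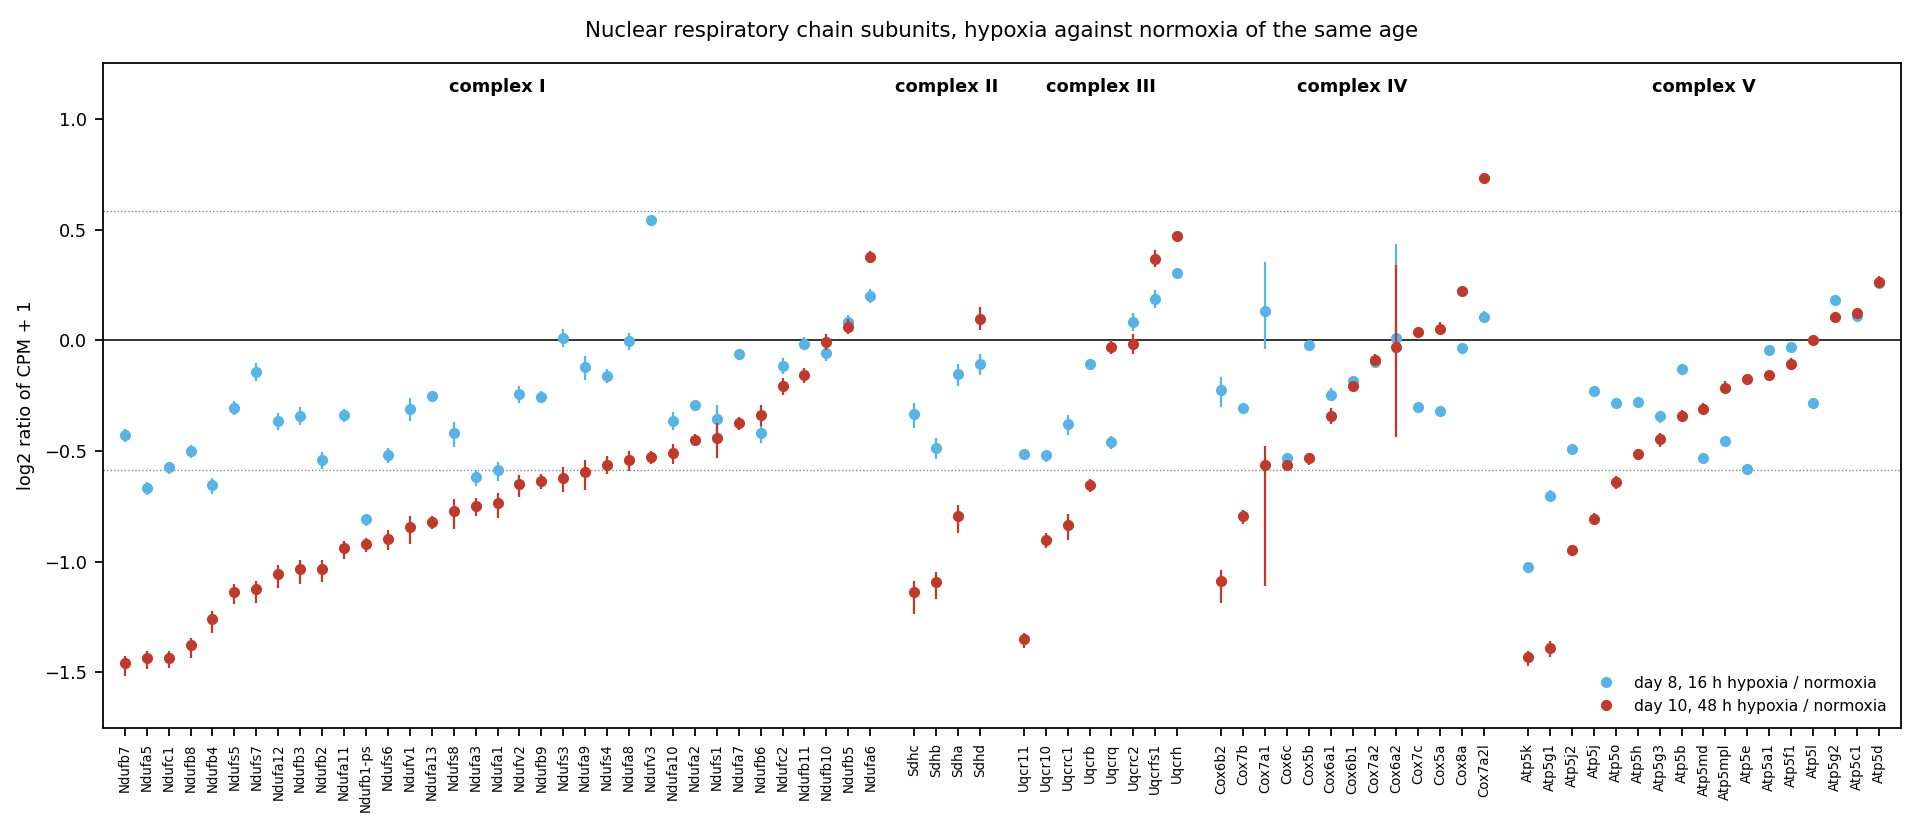
Log2 ratio of CPM + 1, hypoxia over normoxia of the same age, for 77 of the 78 members, ordered within each complex by the day 10 ratio; points are single library pairs, vertical lines 95% counting intervals, and dotted lines mark 1.5-fold. Most day 10 points of complexes I and II lie below -0.5, while complexes III, IV and V spread from about Uqcr11 (-1.35) and Atp5k (-1.43) up to Cox7a2l (0.73); under TMM scaling all day 8 points move up by 0.23 and all day 10 points by 0.50.

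**Figure D2:**
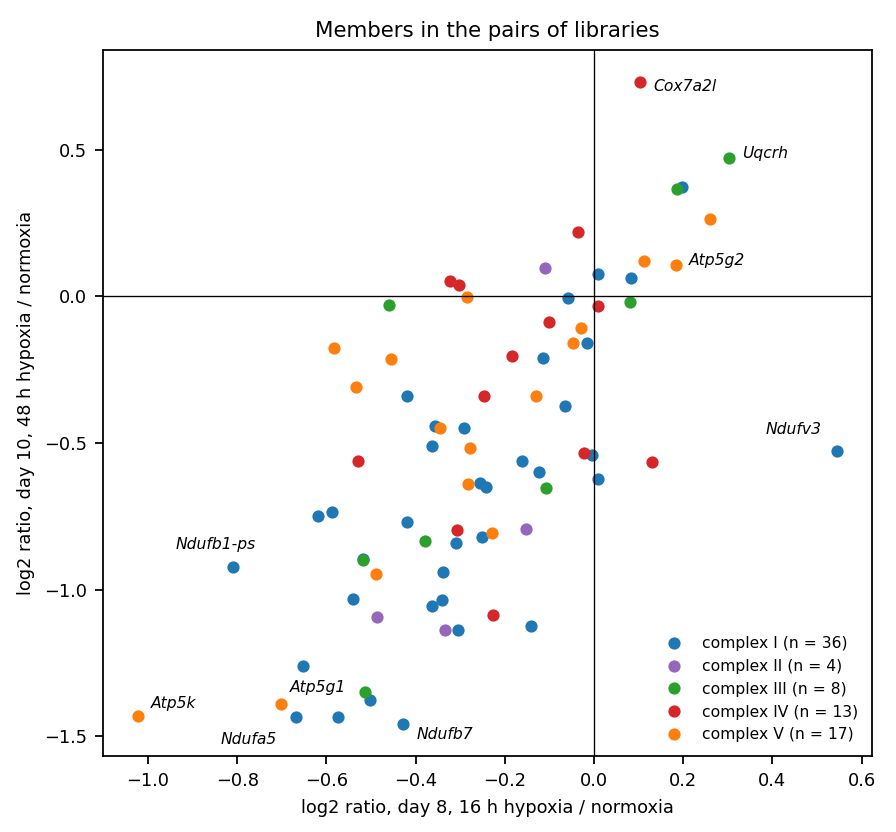
Each point is 1 member, with its log2 ratio at day 8 on the x axis and at day 10 on the y axis, coloured by complex. The 2 pairs of libraries share no library; Pearson's r was 0.67 over 78 members, and Ndufv3 stands apart with 0.54 at day 8 and -0.53 at day 10.

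Members with unlike ratios can be compared in the stretches of DNA around their start sites, by the letters of known motifs. Printed here are such stretches for Atp5k, Ndufb7 and Cox7a2l, at ends of these ranges, and for the 3 genes of the same ATP synthase subunit. They are RefSeq windows on GRCm38.p6 of 300 bases, 250 before to 50 after the annotated start, written in the direction of the gene. Capitals mark letters of the NRF1 core (a doubled GC-rich element), the ETS motif CCGGAAG (bound by GABP) or the hypoxia response core ACGTG, on either strand. The 3 genes of the c subunit come first, of which Atp5g1 was at least 1.5-fold lower in both hypoxic libraries and the other two in neither.
Atp5g1: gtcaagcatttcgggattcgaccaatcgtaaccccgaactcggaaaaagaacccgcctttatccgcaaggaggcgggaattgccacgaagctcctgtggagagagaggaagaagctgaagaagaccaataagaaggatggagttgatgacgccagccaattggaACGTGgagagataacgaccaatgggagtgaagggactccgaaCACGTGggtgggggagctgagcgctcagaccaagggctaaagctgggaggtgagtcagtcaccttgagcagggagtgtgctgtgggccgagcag
Atp5g2: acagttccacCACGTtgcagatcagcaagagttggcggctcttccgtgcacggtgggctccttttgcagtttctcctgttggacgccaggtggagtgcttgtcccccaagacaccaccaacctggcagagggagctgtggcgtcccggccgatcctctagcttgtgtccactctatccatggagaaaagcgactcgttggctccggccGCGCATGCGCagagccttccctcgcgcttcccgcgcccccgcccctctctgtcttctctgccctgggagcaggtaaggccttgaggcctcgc
Atp5g3: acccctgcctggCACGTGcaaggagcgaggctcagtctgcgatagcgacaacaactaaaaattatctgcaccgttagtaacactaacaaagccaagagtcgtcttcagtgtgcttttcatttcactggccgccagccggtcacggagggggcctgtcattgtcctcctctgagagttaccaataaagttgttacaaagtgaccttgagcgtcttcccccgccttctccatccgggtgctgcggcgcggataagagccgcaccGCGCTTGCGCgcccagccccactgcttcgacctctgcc
Atp5k: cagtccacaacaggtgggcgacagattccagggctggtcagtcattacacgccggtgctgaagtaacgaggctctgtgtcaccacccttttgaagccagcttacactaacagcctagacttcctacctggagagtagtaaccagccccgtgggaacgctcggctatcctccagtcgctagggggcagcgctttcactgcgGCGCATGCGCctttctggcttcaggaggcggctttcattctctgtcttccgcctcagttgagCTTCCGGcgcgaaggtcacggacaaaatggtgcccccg
Ndufb7: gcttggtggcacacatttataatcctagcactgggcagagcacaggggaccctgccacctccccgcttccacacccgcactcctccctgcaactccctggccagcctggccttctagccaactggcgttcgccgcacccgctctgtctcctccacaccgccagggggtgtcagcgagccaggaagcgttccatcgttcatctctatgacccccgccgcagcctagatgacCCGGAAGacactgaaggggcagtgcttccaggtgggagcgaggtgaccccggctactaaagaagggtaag
Cox7a2l: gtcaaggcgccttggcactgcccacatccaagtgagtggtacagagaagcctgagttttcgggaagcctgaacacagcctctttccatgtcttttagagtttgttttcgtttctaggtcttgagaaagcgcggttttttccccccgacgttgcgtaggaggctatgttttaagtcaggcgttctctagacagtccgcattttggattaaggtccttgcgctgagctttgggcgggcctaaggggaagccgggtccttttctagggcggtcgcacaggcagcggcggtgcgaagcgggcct
The windows lie at chr11:96075582-96075881, chr15:102670998-102671297, chr2:73911277-73911576, chr5:108434350-108434649, chr8:83566508-83566807 and chr17:83514284-83514583, that of Ndufb7 on the plus strand and the others on the minus strand. The RefSeq starts of Atp5g2 and Cox7a2l lie 1305 and 2997 bases downstream of the GENCODE gene starts, so the upstream starts of these genes are not covered. The c subunit genes differ in these letters: Atp5g2 holds the NRF1 core at -42 and Atp5g3 at 13 (the annotated start is 1), while Atp5g1 holds no NRF1 core in this window, and none of the 3 holds the ETS motif. All 3 hold ACGTG, Atp5g1 at -86 and as CACGTG, which reads the same on both strands, at -44, Atp5g2 at -240 and Atp5g3 as CACGTG at -238. Atp5k, which had the lowest ratio at day 8, holds an NRF1 core at -50 and an ETS motif at 13. Ndufb7 holds the ETS motif at -20, and the Cox7a2l window holds none of the 3. Ndufv3, which had the highest ratio at day 8, is not printed, and its window holds ACGTG but no NRF1 core and no ETS motif.

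Windows were found for 64 of the 78 members. The NRF1 core, the binding letters of a regulator of nuclear genes for mitochondrial proteins, was in the windows of 18 of them (28.1%), against 7% of all 27025 genes with a window. The ETS motif was in 17 (26.6%) against 9.93%, the YY1 motif in 5 (7.81%) against 0.995%, the ERRA motif TCAAGGTCA in 2 (3.12%) against 0.466% and ACGTG in 15 (23.4%) against 21.8%. A longer form of the NRF1 motif, which contains the core, was in 5 members (7.81%) against 1.16%. Those 5 were Ndufa5, Ndufb4, Ndufs5, Sdha and Uqcrc1, and all 5 were among the 32 members with a window that were at least 1.5-fold lower at day 10, where the other 32 had 0. The core was in 10 of those 32 (31.2%) and in 8 of the other 32 (25%), and the YY1 motif was in 4 (12.5%) and 1 (3.12%). The others went the opposite way, with the ETS motif in 7 (21.9%) and 10 (31.2%), ACGTG in 6 (18.8%) and 9 (28.1%) and ERRA in 0 and 2 (6.25%). The 27025 genes were not limited to those counted in these cells and not matched to the members in GC content. These are matches of letters in short windows, given as a description, and the split by ratio was made after the ratios were known.

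Complex I, NADH dehydrogenase, oxidises NADH in its N module, reduces ubiquinone in its Q module and pumps protons through a membrane arm. At day 8 its 36 members had a median of -0.31 and 5 (13.9%) were at least 1.5-fold lower, beside 6.36% of genes of at least 20 CPM. At day 10 the median was -0.69 and 22 of 36 (61.1%) were lower, beside the 37.7% of all genes. Both medians stayed below 0 under TMM (-0.082 and -0.20). The shares lower are on total UMIs and are not given per complex under TMM. Over all 78 members TMM put 16.7% lower at day 10, beside 19.5% of genes. Within the complex the day 10 medians were lowest in the membrane arm, -0.92 over the 11 distal subunits (7 lower) and -0.75 over the 9 proximal subunits (6 lower), and -0.61 in both the N module (4 of 8 lower) and the Q module (5 of 8 lower). The members of each module overlapped those of the others.

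Ndufb7, a distal arm subunit facing the intermembrane space, was at 255 CPM in normoxia and 189 in hypoxia at day 8, and at 204 and 73.7 at day 10. The day 10 hypoxic level stood below the other 3, at 36.1% of its normoxic control (log2 ratio -1.46, interval -1.52 to -1.43). Ndufa5 of the Q module was at 309.5 and 194 CPM at day 8 and at 242 and 88.7 at day 10, ratios of -0.67 and -1.43. Both hypoxic levels were under both normoxic levels. The proximal arm subunit gene Ndufc1 read 329 and 221 CPM at day 8 and 277 and 102 at day 10 (-0.57 and -1.43). Ndufb1-ps, a distal arm gene whose symbol marks it as a pseudogene, was at 375 and 214 CPM at day 8 and at 325 and 171 at day 10 (-0.81 and -0.92), and Ndufb4 of the same arm had ratios of -0.65 and -1.26. GENCODE lists Ndufb1-ps as a noncoding RNA (bidirectional promoter lncRNA), while 77 of the 78 members are listed as protein-coding. Ndufb1-ps shares 147 exonic bases with Cpsf2 on the other strand, and the sources used here do not say whether the counting used strand. Cpsf2 itself was at 48.9, 35.6, 40.6 and 23.8 CPM.

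The 7 nuclear core subunits, which carry the flavin and iron-sulfur clusters or build the ubiquinone site, had medians of -0.24 and -0.65. At day 10, 5 of 7 (71.4%) were at least 1.5-fold lower, beside 37.7% of genes of at least 20 CPM. This count too is not given under TMM, which adds 0.50 to each of these ratios. Ndufs7, which holds the last cluster before ubiquinone, was at 132 and 119 CPM at day 8 and at 139 and 63.2 at day 10. The NADH-binding subunit gene Ndufv1 was at 83.0, 66.8, 77.1 and 42.5 CPM, and Ndufv2 at 137, 116, 113 and 71.6. In these 3 genes the day 10 hypoxic library was the lowest of the 4. Ndufs8 had ratios of -0.42 and -0.77 and Ndufs3 of 0.01 and -0.62. Ndufs1, the largest subunit, was the lowest in level, at 42.6, 33.1, 42.0 and 30.7 CPM (-0.36 and -0.44, the latter 0.05 under TMM).

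A few complex I members stood at or above their controls. Ndufa6, an LYR-motif subunit of the Q module side, was at 198 and 227 CPM at day 8 and at 261 and 338 at day 10, ratios of 0.20 and 0.37. Its level was higher at day 10 than at day 8 in either condition. Ndufb5 had ratios of 0.08 and 0.06, and Ndufb10 of -0.06 and -0.01, which reads 0.49 under TMM. Ndufv3, the most abundant complex I member and a small N module subunit, was at 356 CPM in normoxia and 519.8 in hypoxia at day 8 but at 331 and 229.6 at day 10 (0.54, and -0.53, the latter -0.03 under TMM). The day 8 hypoxic library was thus the highest of the 4 and the day 10 hypoxic library the lowest.

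Complex II, succinate dehydrogenase, belongs to both the chain and the citric acid cycle and is wholly nuclear-encoded. Its 4 genes had ratios between -0.49 and -0.11 at day 8. At day 10 the flavoprotein gene Sdha was at 78.4 CPM in normoxia and 44.8 in hypoxia, the iron-sulfur gene Sdhb at 97.3 and 45.1 and the anchor gene Sdhc at 68.3 and 30.5, log2 ratios of -0.79, -1.09 and -1.14. Each of the 3 was at least 1.5-fold lower, as were 37.7% of genes of at least 20 CPM, and also lower than at day 8. The other anchor gene, Sdhd, was at 95.05, 88.0, 80.4 and 86.0 CPM, so that its day 10 ratio was 0.10 (0.04 to 0.15). In normoxia the 4 genes lay within 68.3 to 108 CPM, the lowest median level of any complex (89.8 CPM at day 8, where complex V had 490).

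Complex III, the cytochrome bc1 complex, takes electrons from ubiquinol to cytochrome c. Its 8 members had medians of -0.24 and -0.34 (the latter 0.16 under TMM), but they went apart. At least 1.5-fold lower were 0 at day 8 and 4 (50%) at day 10, beside 6.36% and 37.7% of genes of at least 20 CPM. The small subunit gene Uqcr11 was at 407 and 285 CPM at day 8 and at 334 and 130.3 at day 10, ratios of -0.51 and -1.35. Uqcr10, another small subunit, had -0.52 and -0.90, and the core protein gene Uqcrc1 -0.38 and -0.83. Uqcrh, the hinge protein that helps cytochrome c dock, was the most abundant and went the other way: 457 and 564 CPM at day 8 and 675 and 936 at day 10, ratios of 0.30 and 0.47 (0.45 to 0.49). Each step from normoxia to hypoxia and from day 8 to day 10 gave a higher level. Uqcrfs1, the Rieske iron-sulfur protein and a catalytic subunit, was at 123, 139.9, 145 and 188 CPM, in the same order. Uqcrc2, the partner of Uqcrc1, stayed between 115 and 121 CPM in all 4 libraries, and Uqcrq was at 294, 214, 224 and 219.7.

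Complex IV, cytochrome c oxidase, hands the electrons to oxygen. Its catalytic core is mitochondrially encoded and the nuclear subunits surround it. The 13 members had medians of -0.18 at day 8 and -0.20 at day 10, above 0 under TMM at both ages (0.042 and 0.29). At day 8, 0 members were lower, beside 6.36% of genes of at least 20 CPM. At day 10, 2 were lower and 1 higher (15.4% lower beside 37.7% of all genes). Cox7c, the most abundant complex IV member, was at 828, 671, 771 and 792 CPM, and Cox8a at 674, 658, 700.5 and 817. Neither was lowest in the day 10 hypoxic library. Cox5a and Cox5b, the matrix-side subunits, parted at day 10: Cox5a was at 287 and 298 CPM and Cox5b at 338 and 233, ratios of 0.05 and -0.53, after -0.32 and -0.02 at day 8. Cox6c was lower both times, at 665 and 460.4 CPM and at 538 and 364 (-0.53 and -0.56, the latter -0.07 under TMM), and Cox7b had -0.31 and -0.80. Cox6a1 (-0.25 and -0.34), Cox6b1 (-0.18 and -0.20) and Cox7a2 (-0.10 and -0.09) differed less, and these day 10 ratios turn above 0 under TMM.

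The 1 member higher by 1.5-fold was Cox7a2l, a relative of Cox7a2 known for joining complexes III and IV into supercomplexes. It was at 242 and 259.8 CPM at day 8 and at 326 and 542 at day 10, ratios of 0.10 (0.08 to 0.13) and 0.73 (0.71 to 0.76). As a share of all Cox7a family UMIs it was 39.3% in normoxia and 42.7% in hypoxia at day 8, and 48.2% (47.7% to 48.7%) and 62.2% (61.9% to 62.6%) at day 10, with Cox7a2 at 59.9%, 56.4%, 51.3% and 37.5%. In mesenchymal-like cells alone the Cox7a2l shares were 39.3%, 41.4%, 48.0% and 61.9%. A share within a family does not depend on how libraries are scaled. The muscle isoform gene Cox7a1 was rare, at 5.02, 5.59, 3.29 and 1.90 CPM.

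**Figure D3:**
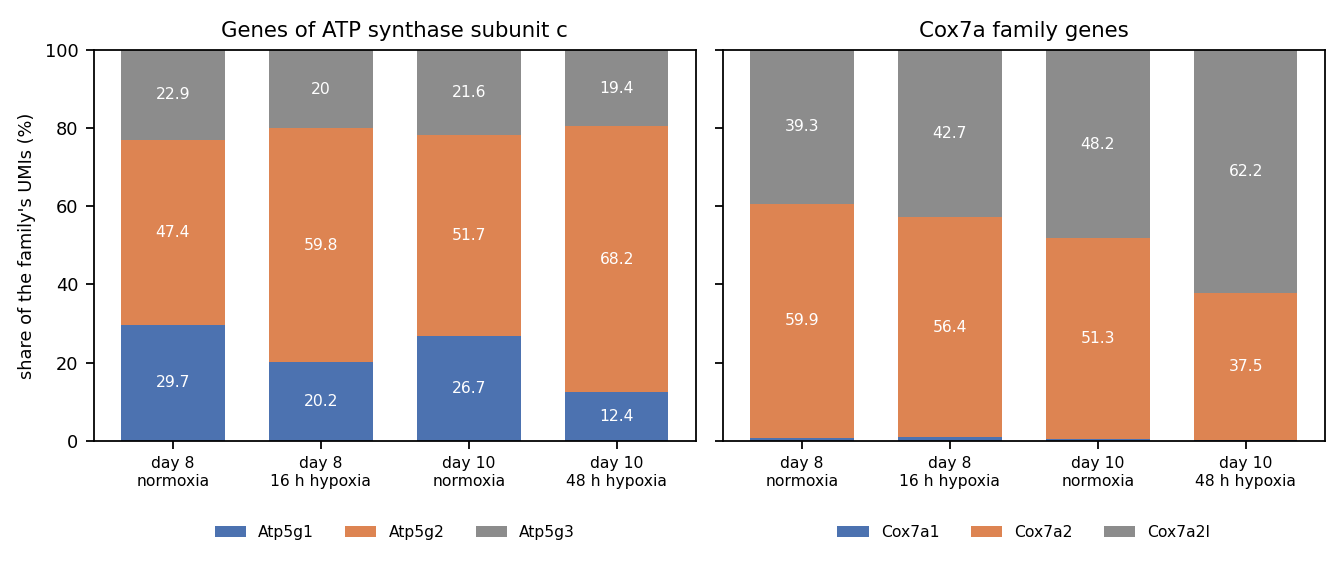
Stacked bars give each gene's share (%) of the UMIs of its family in each of the 4 libraries, for the 3 genes of ATP synthase subunit c (left) and the Cox7a family (right). Atp5g1 is below its normoxic share in both hypoxic libraries (20.2% beside 29.7%, 12.4% beside 26.7%), and Cox7a2l is largest in the day 10 hypoxic library (62.2%).

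Complex V, ATP synthase, is a rotary enzyme with a catalytic F1 head, a ring of c subunits in the membrane and a peripheral stalk. Its 17 members had medians of -0.28 and -0.31 (the latter 0.19 under TMM). At least 1.5-fold lower were 2 (11.8%) at day 8 and 5 (29.4%) at day 10, beside 6.36% and 37.7% of genes of at least 20 CPM. Atp5k, the e subunit, which takes part in joining ATP synthases into dimers, had the lowest ratio of all members at day 8. Its level was 527 CPM at day 8 in normoxia, with a counting interval of 522 to 532, and 259 (255 to 263) after hypoxia. At day 10 the pair was 378 (373 to 383) and 139 (137 to 142). The hypoxic levels were 49.1% and 36.9% of the controls. Both hypoxic levels were below both normoxic levels. The f subunit gene Atp5j2 also was lower, at 731, 520.5, 517 and 268 CPM (-0.49 and -0.95). The other membrane subunit genes were lower at day 8 and less so at day 10: Atp5md had -0.53 and -0.31, Atp5mpl -0.46 and -0.21 and Atp5l -0.29 and 0.00, and under TMM these 3 are above 0 at day 10.

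The F1 head, where ATP is made, had the highest median ratio of the parts of complex V at day 10. It was -0.16 over 5 genes (above 0 under TMM) and 0 of them were 1.5-fold lower, whereas 2 of the 4 peripheral stalk genes were. Of genes of at least 20 CPM, 37.7% were. The alpha and beta subunit genes Atp5a1 and Atp5b had day 10 ratios of -0.16 and -0.34 (above 0 under TMM, 0.34 and 0.16), and the epsilon subunit gene Atp5e -0.17 after -0.58 at day 8. The gamma and delta subunits of the central stalk, to which epsilon also belongs, were above 0. Atp5d, the delta subunit, was at 331 and 396 CPM at day 8 and 397 and 477 at day 10 (0.26 at each age), and Atp5c1, the gamma subunit, had 0.11 and 0.12. In the peripheral stalk Atp5j had -0.23 and -0.81, Atp5o -0.28 and -0.64, Atp5h -0.28 and -0.52 and Atp5f1 -0.03 and -0.11 (0.20 and 0.39 under TMM). Atp5j shares 397 exonic bases with Gabpa on the other strand, which was at 26.5, 23.9, 26.5 and 36.6 CPM.

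The c ring showed the widest spread among genes for 1 subunit. Atp5g1, Atp5g2 and Atp5g3 encode the same mature protein behind different import sequences. Atp5g1 was at 394 and 242 CPM at day 8 and at 317 and 120.4 at day 10, ratios of -0.70 and -1.39. Atp5g2, the most abundant complex V member, was at 629 and 714 CPM and at 614 and 661, ratios of 0.18 and 0.11. Atp5g3 was at 304, 239, 256 and 188 CPM (-0.34 and -0.45, the latter 0.05 under TMM). Of the UMIs of the 3 genes, Atp5g2 had 47.4% in normoxia and 59.8% in hypoxia at day 8, and 51.7% and 68.2% at day 10. Atp5g1 had 29.7% and 20.2%, and 26.7% and 12.4%, and Atp5g3 stayed between 19.4% and 22.9%. Within mesenchymal-like cells the Atp5g2 shares were 47.6%, 60.2%, 51.9% and 68.5%. These 3 are the genes whose promoter windows stand first above.

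Close copies limit the levels, less so the ratios. Of the 50-base words in the last 300 bases of each member's transcripts, which 3-prime counting reads, some occurred in transcripts of other GENCODE genes for 30 of the 78 members, as in 55.5% of words for Atp5g2, 36% for Atp5g1, 65.2% for Cox7c and 0% for Uqcrh and Cox7a2l. For 2 members, Atp5g1 (9.81%, with Itch among them) and Cox5b (18.5%), the other gene was itself counted. No member shared exonic bases with another counted gene on its own strand, and 26 did on the opposite strand. With introns included, Ndufa13 overlaps the counted gene Yjefn3 on its own strand by 8379 bases, which matters if intronic reads were counted.

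The mitochondrially encoded partners differed more than the nuclear genes in each complex that has them. Summed over complex I, the nuclear genes had log2 ratios of -0.25 and -0.61 and the 7 mitochondrial genes -1.28 and -2.05. Complex III had -0.15 and -0.14 beside -1.22 and -2.04 for mt-Cytb, complex IV -0.21 and -0.07 beside -0.67 and -1.63, and complex V -0.27 and -0.32 beside -1.15 and -2.42. The mitochondrial sum was thus lower by more in each of these 4 complexes at both ages. Mitochondrial per nuclear UMIs went from 1.68 in normoxia to 1.04 in hypoxia at day 8 and from 1.97 to 0.677 at day 10, quotients that library scaling does not touch.

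**Figure D4:**
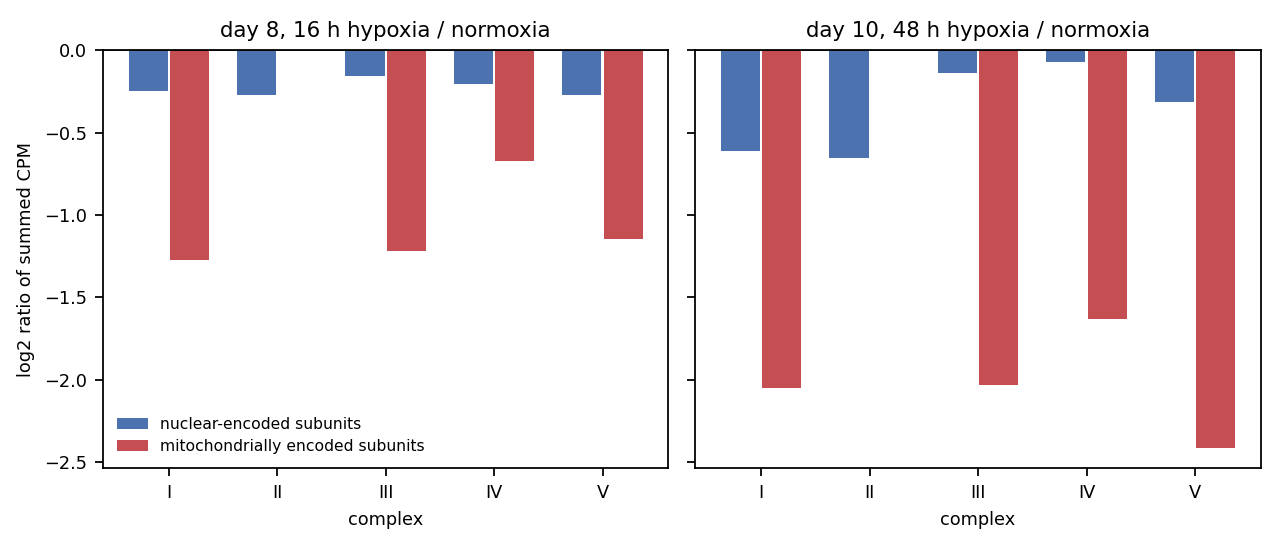
Log2 ratio, hypoxia over normoxia, of the summed CPM of nuclear-encoded (blue) and mitochondrially encoded (red) subunits of each complex at day 8 (left) and day 10 (right); complex II has no mitochondrially encoded subunit. The red bars reach from -0.67 to -2.42 and the blue from -0.07 to -0.65, and under TMM scaling every bar moves up by 0.23 (left) or 0.50 (right), which puts the blue bars of complexes III and IV above 0 at both ages and that of complex V at day 10.

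Other genes of the pathway were taken from fixed lists. Of 45 assembly factors of at least 5 CPM, the helpers that build the complexes, 7 were 1.5-fold lower and 0 higher at day 8, and 31 lower and 1 higher at day 10, with medians of -0.31 and -0.85. Of all genes of at least 5 CPM, 10% were lower and 4.59% higher at day 8, and 44.1% and 10.4% at day 10. Under TMM the assembly factors had 2 lower and 1 higher at day 8, and 18 lower and 3 higher at day 10, where 25.3% of genes were lower. The lowest at day 10 were Sdhaf4, which helps put complex II together (53.0 CPM in normoxia, 11.0 in hypoxia, -2.17), the complex IV factors Pet100 (-2.02) and Coa3 (-1.99) and the complex I iron-sulfur factor Nubpl (-1.74). Of 11 regulators of mitochondrial genes, 0 differed by 1.5-fold at day 8, and 4 were lower and 3 higher at day 10 (2 and 7 under TMM). Tfam, which packages mitochondrial DNA and takes part in its transcription, was at 47.6, 40.4, 48.0 and 18.2 CPM, and Tfb1m had -0.10 and -1.18. Yy1, a transcription factor, was at 79.5, 107, 113 and 243 CPM, and Gabpb1, a GABP subunit gene, had -0.15 and 0.81. Among subunit and carrier genes outside the symbol rule, Ndufa4 was at 688, 446, 515 and 205 CPM and its paralog Ndufa4l2 at 1.62, 27.0, 2.20 and 7.54, Cycs, cytochrome c, had -0.90 and -0.92, and Cox4i1 read 888, 951, 926 and 999 beside Cox4i2 with 4.95, 32.9, 7.01 and 37.2.

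The ratios were next taken within groups of cells. Clusters made without the members, hypoxia or mitochondrial genes were named from marker lists, giving mesenchymal-like cells (2684, 2894, 2389 and 4316 in the order of libraries) and endoderm-, erythroid-, macrophage-, megakaryocyte-, cardiomyocyte- and endothelial-like cells. Mesenchymal-like cells came from different clusters in the day 10 libraries (mostly clusters 5, 9 and 12 in normoxia, and 0, 2, 8, 11 and 14 in hypoxia), so their day 10 ratios set different kinds of such cells beside each other. The same holds between the ages in normoxia, where day 8 cells lay mostly in clusters 1, 3, 4, 7 and 10, and in part at day 8, where cluster 6 held 819 hypoxic and 25 normoxic cells. At day 10 smooth muscle markers summed to 1824 and 7568 CPM and fibroblast markers to 8910 and 3739 over whole libraries, and their part in the result was not tested. Mesenchymal-like cells had member medians of -0.29 and -0.56, with 6 and 35 members lower (7.35% and 35.2% of genes of at least 20 CPM in that class were). At day 8 endoderm-like cells (241 and 193 cells) had -0.28 with 6 of 77 lower (7.08%), and erythroid-like cells (110 and 154) -0.36 with 22 of 76 lower (20.6%). At day 10 macrophage-like cells (183 and 119), a lineage set apart from the mesenchyme, had -0.65 with 41 of 77 lower (27.2%), and endoderm-like cells (65 and 60) -0.32 with 22 of 76 lower (33.2%). The share of members lower at day 10 was thus below that of genes in endoderm-like cells, and above it in mesenchymal- and macrophage-like cells. Higher by 1.5-fold at day 8 were 0, 1 and 0 members in mesenchymal-, endoderm- and erythroid-like cells (302 of 6717, 563 of 6848 and 739 of 4742 genes). At day 10 it was 1, 3 and 2 in mesenchymal-, endoderm- and macrophage-like cells (865 of 6207, 858 of 6549 and 719 of 6098 genes). In all 3 classes of an age, 59 of 78 members were below 0 at day 8 and 52 at day 10. This was not counted over all genes, most of which were also below 0 in each class. Between the normoxic libraries, day 10 over day 8, 0 members were lower in mesenchymal-like cells (7.21% of genes), 1 in endoderm-like cells (8.57%) and 2 in macrophage-like cells (23.3%). In the same order 2, 1 and 2 members were higher (452 of 6836, 554 of 6910 and 957 of 6361 genes). Above 0 in every class were Atp5d, Cox7a2l, Ndufb5, Ndufv3 and Uqcrh at day 8 and Atp5d, Cox7a2l, Cox8a, Ndufa6 and Uqcrh at day 10.

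Single genes repeated across classes to different degrees. Atp5k had day 8 ratios of -1.02 in mesenchymal-like, -0.88 in endoderm-like and -1.15 in erythroid-like cells and day 10 ratios of -1.44, -1.18 and -1.25 in mesenchymal-, endoderm- and macrophage-like cells. Cox7a2l at day 10 had 0.73, 0.78 and 0.99 in the same order, and Uqcrh 0.45, 0.83 and 0.44. Both lay above 0 in each class. Sdhd and Atp5g2 did not repeat: in macrophage-like cells their day 10 ratios were -0.71 and -0.35, where mesenchymal-like cells had 0.11 and 0.12. Per cell, the median share of UMIs from members was 2.29% and 1.89% at day 8 and 2.04% and 1.57% at day 10.

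Levels also differed by kind of cell. Summed over the 4 libraries, 63 of the 78 members had their highest CPM in the 91 cardiomyocyte-like cells, by a median of 1.27-fold over the class that came second. Without day 8 normoxia it was 51 of 78, and without any 1 other library 58 to 66. The same count was not made over all genes, so it is not shown to be particular to the members. In cardiomyocyte-like cells the median member share per cell was 3.34%, 2.70%, 2.80% and 2.76% of UMIs in the 4 libraries. These were 23, 16, 9 and 43 cells, the 9 with a median depth of only 1685 UMIs. The share was above that of mesenchymal-like cells each time (2.30%, 1.91%, 2.03% and 1.56%). Cox6a2, the heart and muscle isoform of Cox6a, was at 213 CPM (190 to 238) in cardiomyocyte-like cells and at most 6.61 in the other classes, and took 49.2% (45.3% to 53.2%) of Cox6a UMIs there but 0.0977% in mesenchymal-like cells. Of the 56 Cox6a2 UMIs in macrophage-like cells, 50 came from day 10 normoxia. Its exons share 70 bases with Itgad on the other strand, for which those cells had 6 UMIs.

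Cox6b2, known as the testis isoform of Cox6b, was at 493 CPM (473 to 514) in the 286 erythroid-like cells, at 169 in megakaryocyte-like cells and at 35.98 in mesenchymal-like cells. It made up 52.6% (51.1% to 54.0%) of Cox6b UMIs in erythroid-like cells, 56.5% in normoxia and 47.2% in hypoxia at day 8. In mesenchymal-like cells its share was 5.33% and 5.02% at day 8 and 11.7% and 6.38% at day 10. The erythroid markers summed over a whole library to 4536, 4604, 570 and 35.7 CPM, near equal in the day 8 libraries. At day 10 mesenchymal-like cells held 3527 of the 3839 Cox6b2 UMIs of the normoxic library and erythroid-like cells 102, beside whole-library ratios of -0.23 and -1.09. No other counted gene overlaps the Cox6b2 exons. Cox7a1, the muscle isoform of Cox7a, was at 50.5 CPM in cardiomyocyte-like, 27.7 in endoderm-like and 27.3 in macrophage-like cells and at 1.76 in mesenchymal-like cells. Of its 74 UMIs in cardiomyocyte-like cells 52 came from day 8 normoxia, and without that library the level there was 24.5 CPM (15.4 to 37.1), beside 30.4 in macrophage-like cells.

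**Figure D5:**
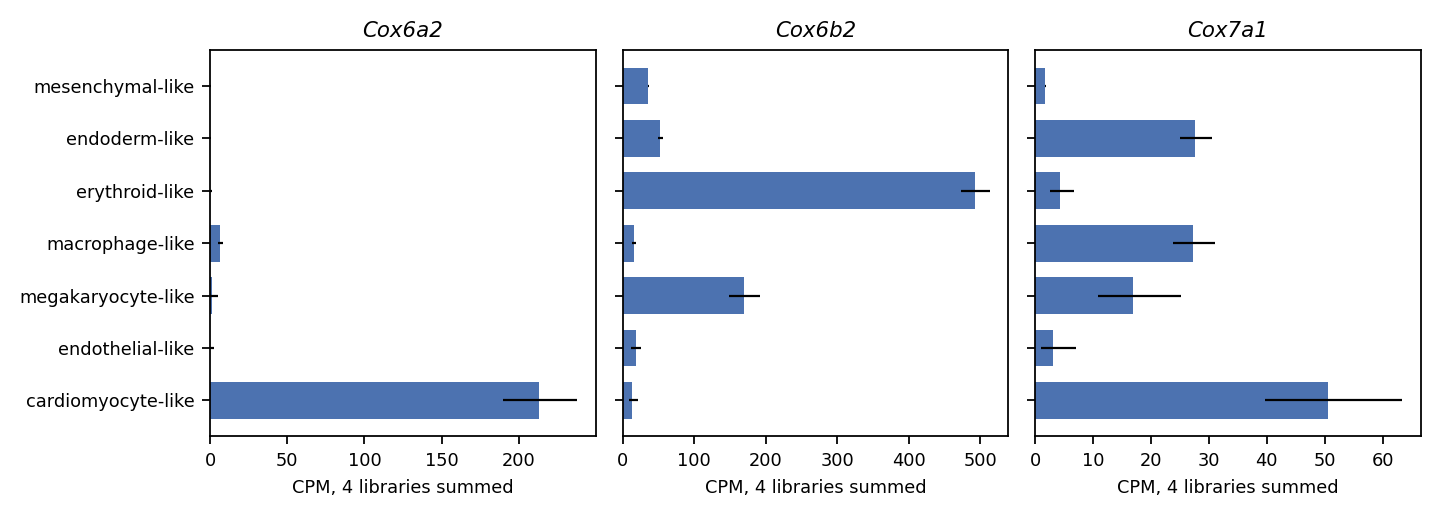
CPM summed over the 4 libraries of 3 tissue-restricted complex IV genes in 7 classes of cells, with 95% Poisson intervals (counting error only) as lines; each panel has its own x axis. Cox6a2 is highest in cardiomyocyte-like cells (213 CPM), Cox6b2 in erythroid-like cells (493) and Cox7a1 in cardiomyocyte-like cells (50.5), which without the day 8 normoxic library is 24.5, below macrophage-like cells (30.4).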

How the data were processed

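Each deposited matrix gives whole-number UMI counts, not normalized by the authors. Cell Ranger 7.1.0 and the mm10 build are named in the submitters' processing notes. The use of intronic reads and of strand is information not given in the sources used here. Cells were kept from 500 genes upward, with mitochondrial UMIs of 15% or less. Scrublet (scanpy 1.11.5) marked 5, 1, 9 and 1 cells as doublets, too few for the caller to have worked, and these were removed. Pairs of libraries shared 1 to 5 barcodes.

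UMIs were summed per library and scaled to CPM. Since 3-prime ends are counted, levels were not divided by gene length. Ratios are log2 of CPM + 1, with intervals of the plain ratio (exact conditional binomial), of levels (exact Poisson) and of shares (Clopper-Pearson), tested on simulated data. No p-value was computed: each group has 1 library. Alternatives changed scaling (TMM from edgeR 4.0.16 among them), pseudocount, cell filters and cell weights.

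Cells were clustered on 2000 variable genes with 30 components and Leiden at resolution 1, and clusters were named from markers in 2 rounds, lineages first, by a rule chosen after seeing the data. The members and lists were chosen with earlier results of these data known. Named were, per complex, the highest and lowest ratios, the most abundant member, isoform families, all complex II genes and complex I core subunits, and up to 4 genes per other list. Further members, such as Uqcrq and Ndufb10, were named after their values were seen. Positions are from GENCODE M21. The values of 1 member are counted in the sums and medians but not reported here singly.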

Additional observations from a re-analysis of the deposited data

Results flagged for a closer look

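In 5 members the 2 hypoxia comparisons had opposite signs with both counting intervals clear of 0, and the difference was not tested, since each condition is 1 library. Ndufv3 had log2 ratios of 0.54 at day 8 and -0.53 at day 10. Sdhd had -0.11 and 0.10, Cox5a -0.32 and 0.05, Cox7c -0.30 and 0.04, and Cox8a -0.04 and 0.22. Another 4 members, Ndufs3 (0.01 and -0.62), Uqcrc2 (0.08 and -0.02), Cox7a1 (0.13 and -0.57) and Cox6a2 (0.01 and -0.03), had opposite signs with an interval that spans 0 in at least 1 comparison. Under TMM scaling the day 8 ratios of Sdhd and Cox8a move above 0 as well, to 0.12 and 0.19. Of the first 5, Ndufv3, Cox5a and Cox7c have opposite signs under that scaling too.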

How the results depend on the processing

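TMM scaling moved the member medians to -0.053 (day 8), -0.053 (day 10) and -0.042 (day 10 over day 8 in normoxia) and the counts of lower members to 1 and 13. It put the medians of complex IV at day 8 (0.042) and of complexes III (0.16), IV (0.29) and V (0.19) at day 10 above 0. Centring on the median gene gave 4 lower members at day 8, a median of -0.22 with 19 lower at day 10, a median of -0.093 with age, and medians above 0 at day 10 for complexes IV (0.13) and V (0.021). A total without mitochondrial and ribosomal genes moved the age median to -0.12. Giving each cell the same weight raised the count at day 8 to 13 and at day 10 to 43. The cause was not tested. The pseudocount, the cell filters, the kept doublets, the class weights, mesenchymal-like cells alone and an alternative chosen after seeing the data (cells of at least 10000 UMIs) left the medians and the counts within 1.5 times; these settings gave 6 to 7 and 34 to 37 lower members. All 7 and all 36 members lower in the main scaling were below 0 under every alternative run. Under TMM this had to be so, because the call threshold in log2 is 0.585 and TMM adds only 0.23 or 0.50. It also had to be so for centring on the median gene, for the pseudocount and for the total without mitochondrial and ribosomal genes. A floor of 20 CPM on members changes no ratio. None of these settings, TMM among them, is thus a check of the sign. Leaving out 1 library at a time, also chosen after seeing the data, left Cox6a2 in cardiomyocyte-like cells at 191 to 249.5 CPM, Cox6b2 in erythroid-like cells at 393 to 612 and Cox7a1 in cardiomyocyte-like cells at 24.5 to 68.8. No paired analysis was possible because each group has 1 library. With 1 library, depth limits only counting error, and differences between cultures were not measured.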
